A study of Homo sapiens with 26 samples.

Results

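The epidermal growth factor (EGF) receptor system of human airway epithelial cells was followed through 10 genes. These are the receptors EGFR, ERBB2 and ERBB3, the ligands HBEGF, AREG, EREG, TGFA, BTC and EPGN, and the sheddase ADAM17. The genes were chosen by name, with earlier results of these data known. Each matched 1 row among the 58735 genes of the count table, and all 10 passed the filter on low counts in every comparison.

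Ligands of the EGF family are made as precursors anchored in the membrane, and metalloproteases such as ADAM17 cut several of them free. A bound ligand lets EGFR pair with another EGFR molecule, with ERBB2 or with ERBB3, and the pair signals through the RAS and MAP kinase cascade to a well known group of immediate-early genes. In airway epithelium the system is known for its part in wound closure and in mucin production, and polarized cells can hold a ligand and its receptor on opposite sides of the tight junctions.

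RNA was sequenced in bulk from 26 libraries of 16HBE, an immortalized bronchial epithelial line of human origin, in 5 groups. CF cells were of the 16HBEge line with the genotype DeltaF508 CFTR, in high glucose (17.5 mM, 6 libraries) or in normal glucose (5.5 mM, 6 libraries). WT cells were of the 16HBE14o- line with WT CFTR. They comprised 5 libraries in high glucose, 3 libraries labelled not polarized (normal glucose), and 6 libraries in normal glucose. All cells had been seeded on Transwells, which are porous inserts, with 250000 cells in each well, and were kept for 7 days with a medium change every day. The RNA of a library came from 2 pooled wells. The labels give the not polarized cells this same protocol, and how they were kept from polarizing is not given in the sources used here. Each genotype is 1 cell line, so the CFTR genotype and any other difference between the lines cannot be told apart. Nothing in the labels says that libraries came from separate cultures, so p-values measure only the spread between these samples, which may be technical. Fewer cells of a type and less RNA per cell cannot be told apart in such samples, and protein, cleavage and phosphorylation were not measured.

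Library totals ran from 14658319 to 20413839 counts, and the smallest count of any of the 10 genes was 86, for BTC. The epithelial genes EPCAM, CDH1, KRT8 and KRT18 were at 112 FPKM or more in every library, KRT5 lay between 5.42 and 24.1 FPKM, and TP63, a basal cell factor, did not exceed 0.142 FPKM. Of markers of other cells, MUC5AC and MS4A1 were at 0 and the summed secretory list reached at most 0.185 FPKM. The ciliated list summed to at most 1.26 FPKM and the immune list to at most 0.957 FPKM. The endothelial list, nearly all CDH5, summed to between 3.26 and 4.17 FPKM in CF cells and between 1.86 and 2.45 FPKM in WT cells in high glucose, and to between 3.06 and 4.47 FPKM in CF cells and between 2.05 and 2.62 FPKM in WT cells in normal glucose. The fibroblast list, mostly COL1A1, summed to between 1.56 and 2.56 FPKM in CF cells in normal glucose and between 1.30 and 1.43 FPKM in not polarized cells, against between 2.70 and 4.37 FPKM in WT cells in normal glucose. The immune list, mostly CD14, summed to between 0.612 and 0.910 FPKM in CF cells in high glucose, against between 0.387 and 0.574 FPKM in CF cells in normal glucose and between 0.336 and 0.594 FPKM in WT cells in high glucose. The epithelial list summed to between 949.6 and 953 FPKM in not polarized cells and between 783 and 934 FPKM in WT cells in normal glucose. The part of these markers in the results was not tested.

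In the 4 glucose groups, libraries numbered 4 to 6 stood apart from those numbered 1 to 3, and the labels do not say what the numbers mark. For WT cells in high glucose the set 4 to 6 holds only 2 libraries, against 3 in the other glucose groups. The 82 ribosomal protein genes took between 2.42% and 3.59% of counts in libraries 4 to 6 and between 3.17% and 4.79% in libraries 1 to 3, with no overlap within any group. A term for this number set called 49.6% of all genes and 8 of the 10 studied here. EGFR was 0.36 ± 0.05 (SE, log2) higher in libraries 4 to 6 and EREG 0.25 ± 0.09 higher, whereas BTC fell by 0.47 ± 0.08 and EPGN by 0.31 ± 0.08. AREG and ADAM17 were not called. The term gives 1 shift for all 4 groups, and the shifts differed between groups. EREG averaged 20.7 CPM in libraries 1 to 3 and 27.8 CPM in libraries 4 to 6 of CF cells in normal glucose. In WT cells it averaged 47.2 and 42.1 CPM in normal glucose and 52.4 and 56.3 CPM in high glucose. EGFR averaged 821 and 1286 CPM in CF cells and 1098 and 1202 CPM in WT cells, both in normal glucose. For the 10 genes, values within each number set are given beside differences between groups that moved with it. Other genes named below were not compared within the number sets. The not polarized libraries are numbered 1 to 3 and had ribosomal shares between 4.21% and 4.41%, above every WT library in normal glucose (between 2.60% and 3.97%). Mitochondrial genes took between 1.73% and 1.75% of counts in not polarized libraries and between 2.44% and 3.59% in WT libraries in normal glucose, and the part of either share in the results was not tested.

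Per length of gene, EGFR had the highest level of the receptors in every group. In WT cells in normal glucose it averaged 90.9 ± 7.01 FPKM (SD, n = 6), against 24.97 ± 0.728 FPKM for ERBB2 and 21.3 ± 1.65 FPKM for ERBB3. FPKM are counts scaled by gene length and by library depth. CPM, used here to follow 1 gene across libraries, are counts scaled by depth and a normalization factor of the library, without gene length. Among the ligands of the same libraries TGFA led with 69.2 ± 4.39 FPKM, followed by AREG with 33.6 ± 4.98 FPKM. EPGN was at 9.56 ± 1.31 FPKM, EREG at 7.72 ± 0.569 FPKM, HBEGF at 5.02 ± 0.417 FPKM and BTC at 2.68 ± 0.645 FPKM. ADAM17 was at 13.6 ± 0.555 FPKM. The other members of the family were nearly silent. EGF itself had between 0 and 5 counts, with 0 in 21 of 26 libraries, and the fourth receptor, ERBB4, had between 0 and 2 counts, with 0 in 23 libraries. Neither was tested.

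**Figure D1:**
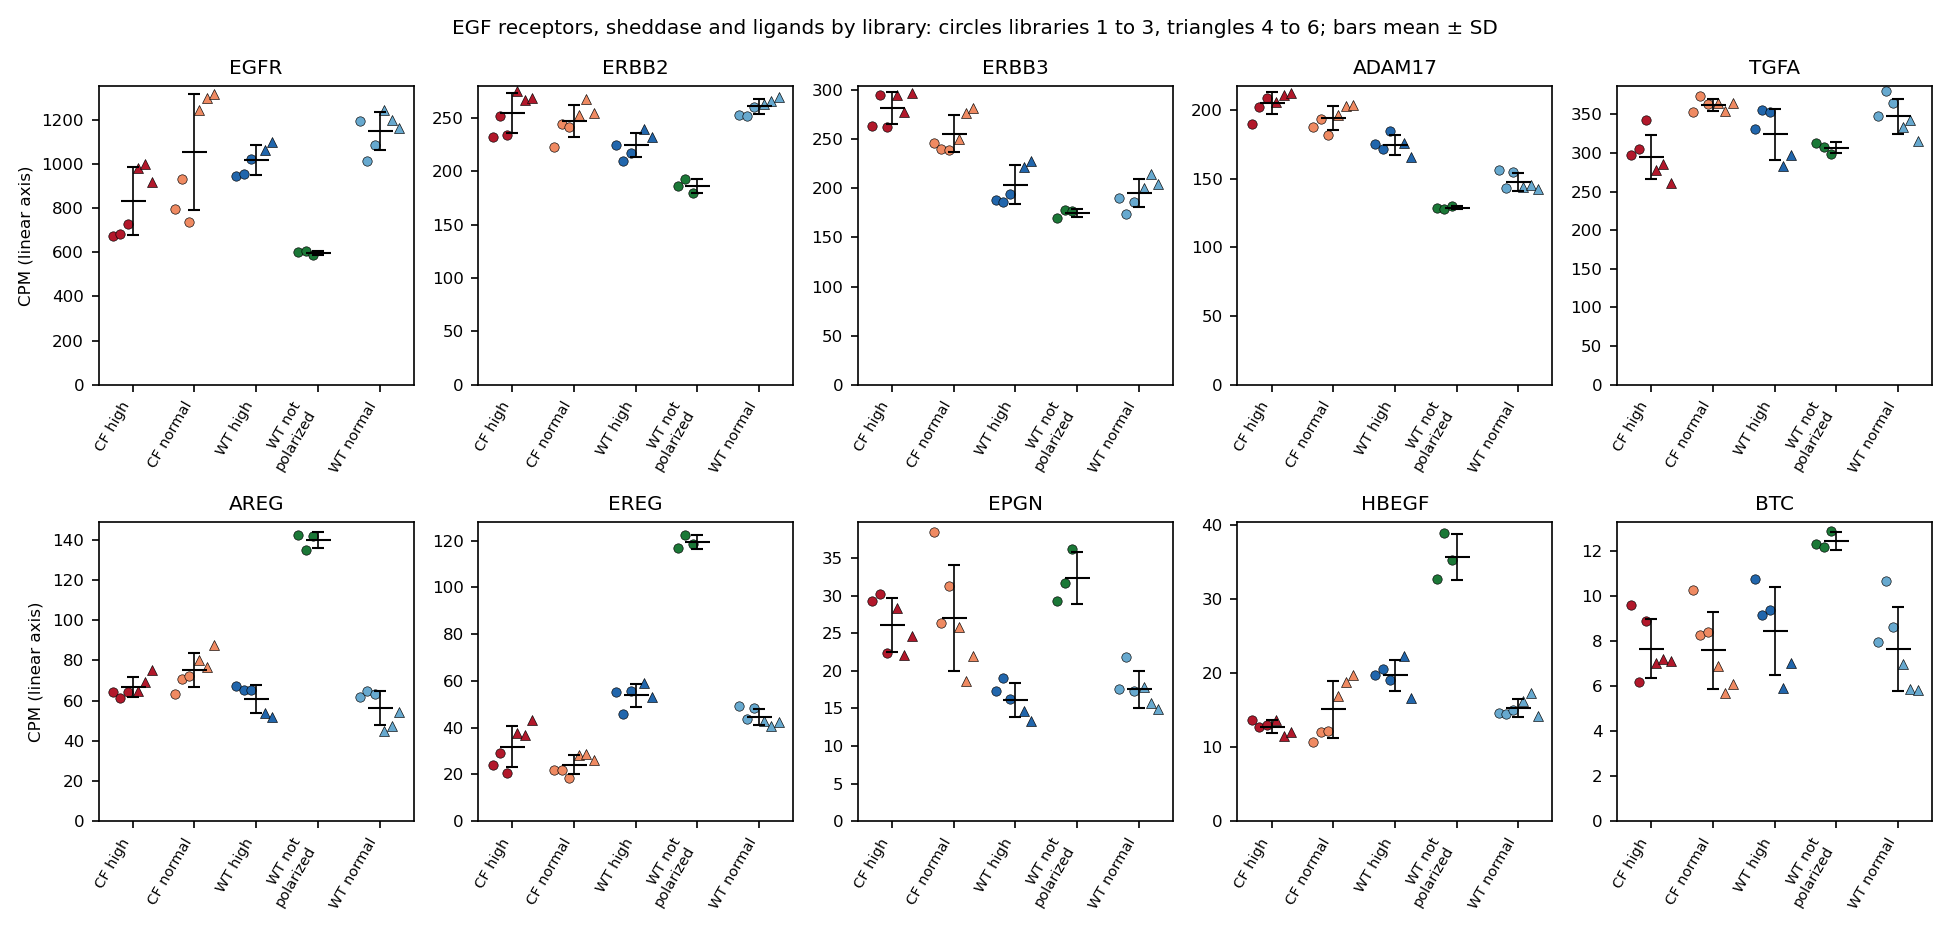
Level of each of the 10 genes in each of the 26 libraries, in CPM on a linear axis from 0, with circles for libraries 1 to 3, triangles for libraries 4 to 6 and black bars for the mean ± SD of the group. AREG, EREG and HBEGF stood highest in not polarized WT cells and EGFR lowest, while EGFR in CF cells split by library number.

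The not polarized cells were set against WT cells in the same glucose to ask what differs in a layer that has not polarized. Transcripts of 5 of the 6 ligands were higher and those of EGFR, ERBB2, ADAM17 and the ligand TGFA were lower in not polarized cells. In this comparison 50% of all 16105 tested genes were called at an adjusted p under 0.05 (24% higher and 26% lower), and 9 of the 10 genes were. The median fold change of the 10 genes was 0.26 on the log2 scale, against -0.02 over all genes.

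EGFR (ENSG00000146648, chr7:55019021-55211628, plus strand), the receptor that binds all 6 ligands, had 599.7, 607 and 588 CPM in the 3 not polarized libraries, against a lowest value of 1012, a median of 1178 and a highest value of 1246 CPM in the 6 WT libraries in normal glucose. The groups did not overlap. The not polarized level was 0.514 times that in normal glucose, a log2 difference of -0.96 ± 0.07 (SE) with an adjusted p of 1.65e-07. It was -0.88 against WT libraries 1 to 3 alone and -1.03 against libraries 4 to 6 alone. An antisense gene, EGFR-AS1, lies within EGFR and had between 4 and 72 counts, against between 9487 and 24611 for EGFR. The strand setting of the counting is not given in the sources used here. Reads of such overlapping pairs may therefore be shared.

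ERBB2 (ENSG00000141736, chr17:39687914-39730426, plus strand), the partner receptor with no ligand of its own, had 186, 192 and 179.5 CPM in not polarized libraries, against 252, 261 and 269 CPM as the lowest, median and highest values in WT normal glucose. These groups did not overlap either, and the log2 difference was -0.50 ± 0.06 with an adjusted p of 7.08e-06. It was -0.46 against WT libraries 1 to 3 and -0.54 against libraries 4 to 6, both called. ERBB3 (ENSG00000065361, chr12:56076799-56103505, plus strand), a neuregulin receptor with little kinase activity of its own, had 170.0, 178 and 177 CPM in not polarized libraries, against 174, 195 and 215 CPM in WT normal glucose. These ranges overlapped, and the difference of -0.17 ± 0.07 was not called at an adjusted p of 0.0530. ERBB3 was called (-0.27, adjusted p 5.04e-05) against WT libraries 4 to 6 alone but not against libraries 1 to 3 (-0.07, adjusted p 0.245). Of the genes overlapping ERBB2 on the opposite strand, PGAP3 had between 476 and 851 counts and MIEN1 between 220 and 439, against between 2897 and 5461 for ERBB2.

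Among the ligands, EREG (ENSG00000124882), which encodes epiregulin, had 117, 123 and 118 CPM in not polarized libraries, against 40.9, 43.4 and 49.3 CPM as the lowest, median and highest values in WT normal glucose. Not polarized cells held 2.64 times as much, with no overlap (log2 1.40 ± 0.07, adjusted p 1.45e-09). AREG (ENSG00000109321), which encodes amphiregulin, had 142, 135 and 142 CPM in not polarized libraries, against 44.9, 58.0 and 64.9 CPM in WT normal glucose. It was 2.46 times as high (log2 1.30 ± 0.10, adjusted p 2.73e-07), again with no overlap.

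HBEGF (ENSG00000113070, chr5:140332843-140346631, minus strand), the heparin-binding ligand that also serves as the receptor of diphtheria toxin, had 32.7, 39.0 and 35.3 CPM in not polarized libraries, against 14.2, 14.8 and 17.3 CPM in WT normal glucose. It was 2.30 times as high (log2 1.20 ± 0.09, adjusted p 9.52e-08). EPGN (ENSG00000182585), which encodes epigen, had 29.4, 31.6 and 36.2 CPM, against 14.9, 17.4 and 21.9 CPM in WT normal glucose. BTC (ENSG00000174808), which encodes betacellulin, had 12.3, 12.1 and 12.9 CPM, against 5.80, 7.45 and 10.7 CPM in WT normal glucose. EPGN was 1.83 times (log2 0.87 ± 0.11, adjusted p 2.07e-05) and BTC 1.62 times (log2 0.69 ± 0.16, adjusted p 0.00315) as high, and neither gene's groups overlapped. Against either number set of WT libraries alone, EREG, AREG, HBEGF and EPGN lay between 0.77 and 1.49, and all were called. BTC moved most with the choice of WT libraries, at 0.45 against libraries 1 to 3 and 0.98 against libraries 4 to 6, both called.

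TGFA (ENSG00000163235, chr2:70447280-70554193, minus strand), which encodes transforming growth factor alpha, differed from the other ligands in direction. It had 313, 308 and 299 CPM in not polarized libraries, against 316, 345 and 381 CPM in WT normal glucose. The ranges did not overlap but lay close, the difference was -0.20 ± 0.07, and the adjusted p of 0.0243 became 0.0667, 0.0832 or 0.116 when not polarized library 1, 2 or 3 was left out. It was -0.25 against WT libraries 1 to 3 and -0.13 against libraries 4 to 6, both called. ADAM17 (ENSG00000151694, chr2:9488486-9556732, minus strand) had 129, 128 and 130.3 CPM in not polarized libraries, against 143, 144 and 157 CPM in WT normal glucose. The groups did not overlap, and the difference was -0.21 ± 0.06 with an adjusted p of 0.00700. It was -0.24 against WT libraries 1 to 3 and -0.18 against libraries 4 to 6, both called. IAH1, which overlaps ADAM17 on the opposite strand, had between 461 and 963 counts, against between 2103 and 3960 for ADAM17.

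The make-up of the ligand pool differed along with its size. Summed over the 6 ligands, not polarized libraries held 199 ± 1.11 FPKM (SD, n = 3) and WT libraries in normal glucose 128 ± 10.2 FPKM (n = 6). TGFA made up 30.7% ± 0.909 of this sum in not polarized cells and 54.2% ± 1.78 in WT normal glucose. AREG made up 42.0% ± 1.00 in not polarized cells and 26.2% ± 2.34 in WT normal glucose, and so exceeded TGFA in the not polarized group and in no other group. EREG held 10.4% ± 0.307 in not polarized cells and 6.05% ± 0.407 in WT normal glucose. The 3 receptors summed to 84.2 ± 1.75 FPKM in not polarized cells and 137 ± 8.85 FPKM in WT normal glucose, with an EGFR share of 56.1% ± 0.349 in not polarized cells and 66.2% ± 1.18 in WT normal glucose. These sums are descriptions of the libraries and were not tested.

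**Figure D2:**
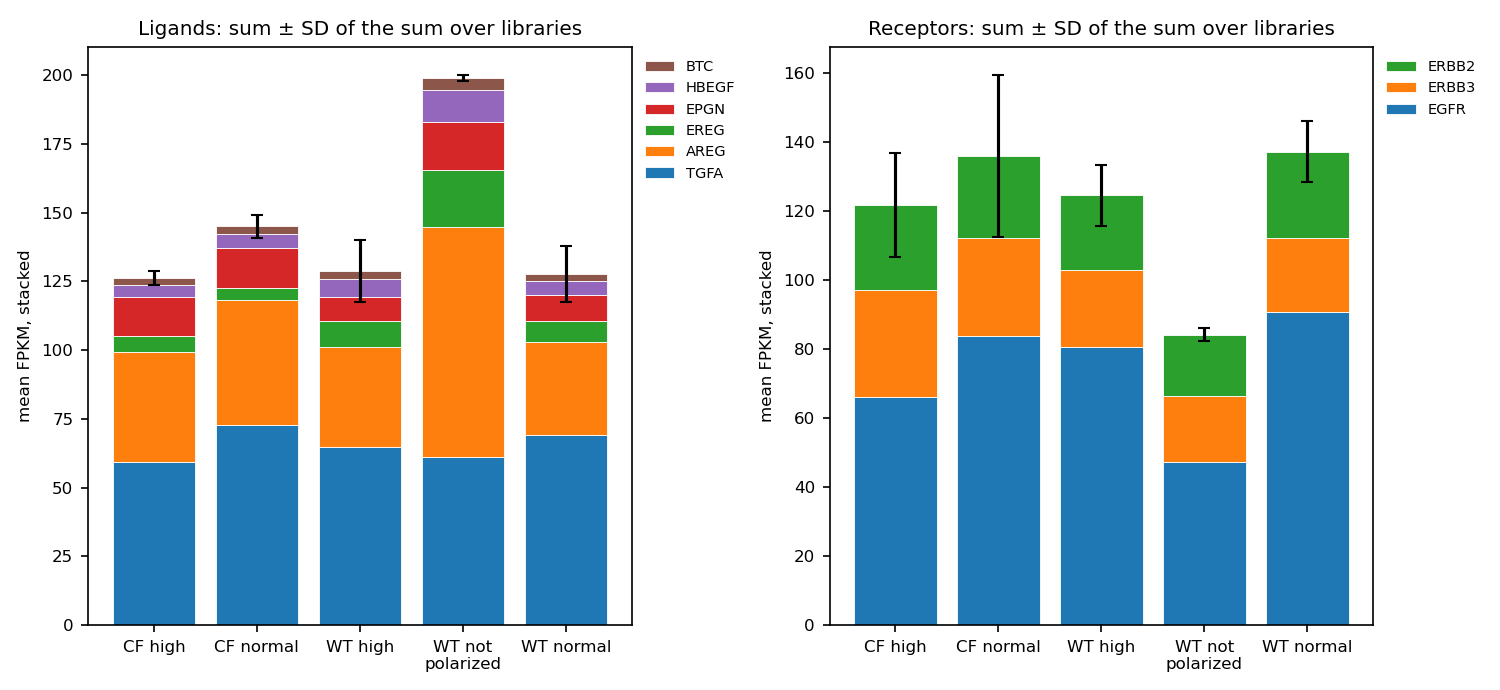
Mean FPKM of the 6 ligands (left) and 3 receptors (right), stacked by group, with bars for the SD of the sum over libraries. Not polarized WT cells had the tallest ligand bar, at 199 FPKM, and the shortest receptor bar, at 84.2 FPKM.

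EPGN, EREG, AREG and BTC are neighbours on chromosome 4 and were higher together. In the GRCh38 positions of the count table they lie at chr4:74308473-74315307, chr4:74365143-74388751, chr4:74445134-74455009 and chr4:74744759-74794686, the first 3 on the plus strand and BTC on the minus strand. The gaps between them are 49.8, 56.4 and 289.8 kb, the whole stretch spans 486 kb, and no other protein-coding gene lies in it. Among the nearest genes beyond its ends, named for their position, the differences between not polarized and WT normal glucose cells were mixed. RASSF6 (-1.04 ± 0.23) and the neutrophil chemokine genes CXCL1 (-1.09 ± 0.07), CXCL6 (-1.16 ± 0.16) and CXCL8 (-0.71 ± 0.16) were lower and CXCL2 (1.24 ± 0.10) was higher on the EPGN side, and PARM1 (1.08 ± 0.29), which encodes a membrane protein, was higher on the BTC side. CXCL1 and CXCL2 are close in sequence and their reads may be shared. CXCL3, CXCL5 and MTHFD2L, which lie between CXCL1 and EPGN, were not called.

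**Figure D3:**
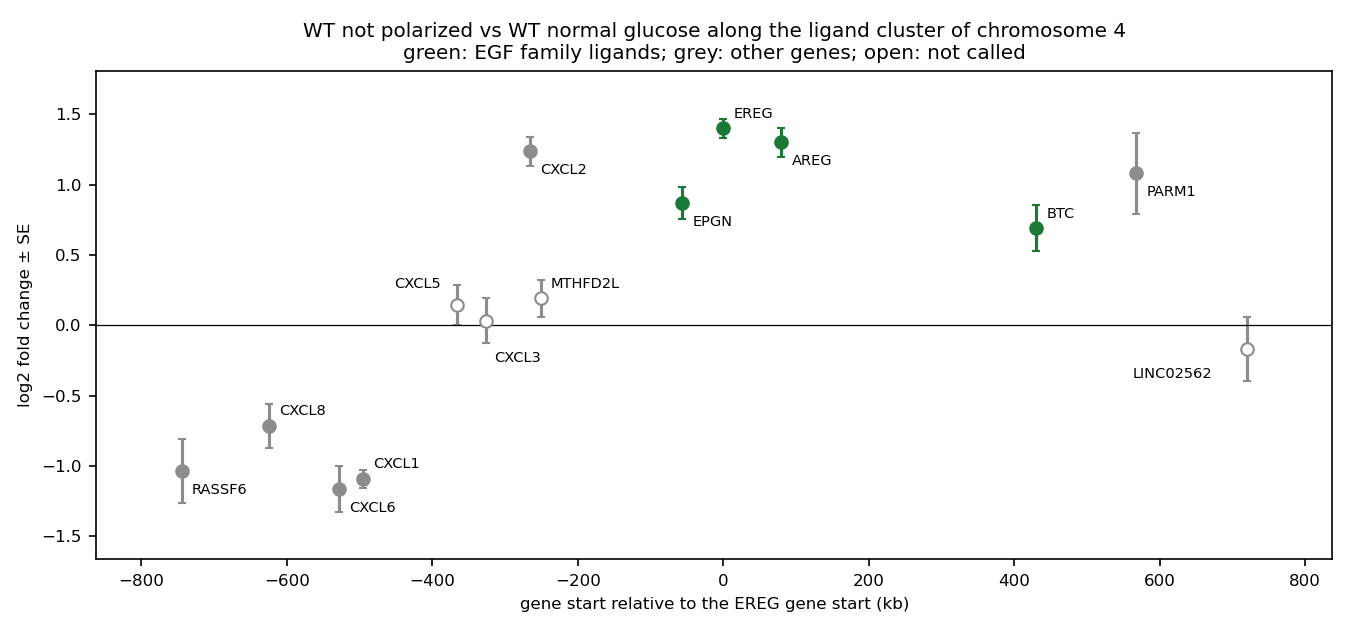
Log2 fold change ± SE of the tested genes around the ligand cluster, not polarized against normal glucose WT cells, by distance of the gene start from that of EREG in kb. Filled points were called, and the 4 ligands (green) all lay above 0, between 0.69 and 1.40.

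The 250 bases before the RefSeq start of the 4 clustered ligands and of HBEGF are shown because these are the 5 genes that were higher together in not polarized cells. They are RefSeq promoters of GRCh38.p14, 5′ to 3′ on the strand of the gene, and 9 of the 10 genes had such an entry. Capitals mark matches on either strand to 4 motifs, the AP-1 site TGANTCA, the cAMP response element TGACGTCA, the TATA box TATAAA and the GC box GGGCGG. The stretches are chr4:74308220-74308469 for EPGN, chr4:74364895-74365144 for EREG, chr4:74444886-74445135 for AREG, chr4:74794524-74794773 for BTC and chr5:140346604-140346853 for HBEGF. RefSeq starts differ from the gene positions of the count table given above. The stretches of BTC and HBEGF, and only just those of EREG and AREG, therefore reach into the genes as placed there.
EPGN: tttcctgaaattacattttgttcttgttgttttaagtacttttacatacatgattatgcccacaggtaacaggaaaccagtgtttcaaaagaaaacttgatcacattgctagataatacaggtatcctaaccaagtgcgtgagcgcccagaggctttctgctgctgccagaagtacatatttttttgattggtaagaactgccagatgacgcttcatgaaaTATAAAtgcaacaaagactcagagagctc
EREG: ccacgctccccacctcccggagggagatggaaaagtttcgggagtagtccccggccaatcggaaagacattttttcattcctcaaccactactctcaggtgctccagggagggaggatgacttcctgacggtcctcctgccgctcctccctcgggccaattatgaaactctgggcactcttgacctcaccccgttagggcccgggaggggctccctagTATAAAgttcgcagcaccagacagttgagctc
AREG: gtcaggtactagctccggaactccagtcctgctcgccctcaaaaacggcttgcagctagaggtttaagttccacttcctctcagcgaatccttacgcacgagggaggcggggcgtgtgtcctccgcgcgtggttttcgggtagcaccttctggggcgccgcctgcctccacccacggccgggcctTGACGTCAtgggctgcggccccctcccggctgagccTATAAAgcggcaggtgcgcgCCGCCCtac
BTC: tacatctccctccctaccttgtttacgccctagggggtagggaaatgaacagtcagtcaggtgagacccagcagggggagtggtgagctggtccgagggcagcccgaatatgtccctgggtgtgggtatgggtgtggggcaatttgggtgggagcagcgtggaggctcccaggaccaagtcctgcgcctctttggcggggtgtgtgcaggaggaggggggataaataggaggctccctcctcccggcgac
HBEGF: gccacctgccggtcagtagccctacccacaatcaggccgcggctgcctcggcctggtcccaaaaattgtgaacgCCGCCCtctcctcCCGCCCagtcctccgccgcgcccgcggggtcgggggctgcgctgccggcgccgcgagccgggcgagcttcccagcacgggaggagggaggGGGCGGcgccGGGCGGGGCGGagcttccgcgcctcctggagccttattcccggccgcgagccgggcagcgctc

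Of these stretches, EPGN, EREG and AREG each held a TATA box, which began 29, 32 and 29 bases before the start and which 10.7% of the 35116 promoters of the same length hold. AREG held a cAMP response element 65 to 58 bases before the start, found in 1.65% of promoters, and a GC box, found in 42.6%. HBEGF held 5 GC boxes, of which the last overlaps the one before it, and BTC held none of the 4 motifs. None of the 5 stretches held the AP-1 letters, which 6.57% of promoters hold. The matches describe the sequence and say nothing of what binds there.

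Of 17 tested genes for ligand shedding and trafficking, 2 were higher and 8 lower in not polarized cells (24% and 26% of all genes). RHBDF2, an inactive rhomboid protein that carries ADAM17 to the cell surface, averaged 37.8 ± 2.37 CPM in not polarized cells (SD, n = 3) and 93.7 ± 5.81 CPM in WT normal glucose (n = 6), a log2 difference of -1.33 ± 0.07 with an adjusted p of 6.29e-09. Its relative RHBDF1 averaged 61.4 ± 1.62 CPM in not polarized cells and 92.2 ± 9.08 CPM in WT normal glucose (-0.60 ± 0.08, adjusted p 3.74e-05). ADAM12, another metalloprotease, averaged 1.23 ± 0.278 CPM in not polarized cells and 11.8 ± 1.06 CPM in WT normal glucose (-3.29 ± 0.17). ADAM10, the sheddase of EGF and betacellulin in mouse cells, was lower by a smaller step, at 409 ± 7.41 CPM in not polarized cells and 458 ± 24.0 CPM in WT normal glucose (-0.18 ± 0.06, adjusted p 0.0249). TIMP3, the tissue inhibitor of ADAM17, averaged 16.2 ± 1.44 CPM in not polarized cells and 16.0 ± 2.23 CPM in WT normal glucose and was not called.

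Of 25 transcripts known to be induced by EGFR signalling, 20 were higher and 2 lower in not polarized cells, where 24% of all genes were higher and 26% lower. The median of the list was 1.31 on the log2 scale, against -0.02 over all genes. FOS, an immediate-early transcription factor, averaged 122 ± 2.52 CPM in not polarized cells (SD, n = 3) and 2.87 ± 0.703 CPM in WT normal glucose (n = 6), which is 41.6-fold. FOSB was 39.6-fold higher, and DUSP6, a phosphatase that turns off the MAP kinase ERK, was 5.94-fold higher. The 2 lower transcripts, named after their values were seen, were IER3 (-0.69 ± 0.09) and PLAUR (-0.39 ± 0.07). The neuregulin NRG1, a ligand of ERBB3, was 2.04-fold higher in not polarized cells, on counts of only 2 to 47 in any library. These genes also answer to stimuli that do not act through EGFR. This list, like the other gene lists used here, was chosen with earlier results of these data known. Its counts are therefore descriptions and not tests.

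Inhibitors of the receptor moved in both directions. Of 20 tested genes for receptor inhibition and turnover 8 were higher and 3 lower in not polarized cells, where 24% of all genes were higher and 26% lower. SH3KBP1, an adaptor in receptor uptake, was 1.96-fold higher, LRIG3 1.55-fold and the phosphatase PTPRK 1.54-fold. ERRFI1, the feedback inhibitor that binds the EGFR kinase domain, averaged 509.9 ± 3.90 CPM in not polarized cells and 569 ± 74.4 CPM in WT normal glucose and was not called. LRIG1, which promotes receptor degradation, averaged 1.19 ± 0.0890 CPM in not polarized cells and 1.84 ± 0.454 CPM in WT normal glucose and was not called either. Of 23 tested adaptors and kinases 6 were higher, among them the phosphatase PTPN11 (1.43-fold) and RASA1 (1.40-fold), and 9 were lower, among them PIK3R1 (0.648 times), beside the same 24% higher and 26% lower of all genes.

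**Figure D4:**
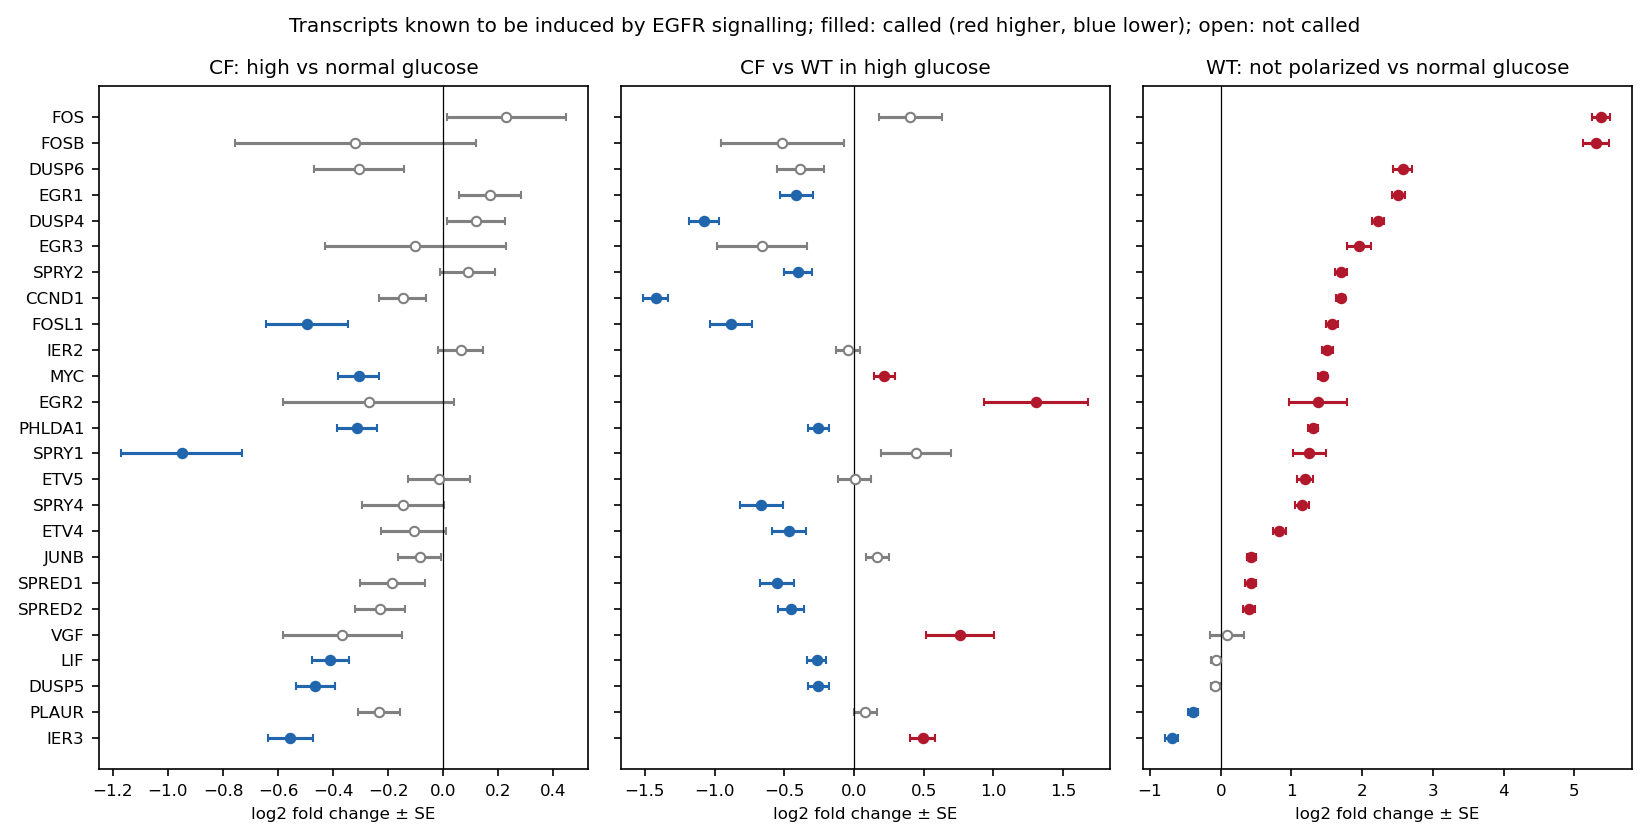
Log2 fold change ± SE of 25 transcripts known to be induced by EGFR signalling, for CF cells in high against normal glucose (left), CF against WT cells in high glucose (middle) and not polarized against normal glucose WT cells (right), each on its own axis. Filled points were called, 0 higher and 7 lower on the left, 4 higher and 12 lower in the middle, and 20 higher and 2 lower on the right.

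CF and WT cells were compared at each glucose level. In CF cells ERBB3, EPGN and ADAM17 were higher and EREG was lower than in WT cells in both media, ERBB2 was higher and HBEGF lower in high glucose, and AREG was higher in normal glucose. That is 6 of 10 genes in high glucose, where 19.9% of all 16338 tested genes were called (9.35% higher and 10.6% lower), and 5 of 10 in normal glucose, where 24.4% were (11.4% higher and 13% lower). The median over the 10 genes was -0.0012 in high glucose and 0.03 in normal glucose on the log2 scale, against 0.01 over all genes in high glucose and 0.0040 in normal glucose. The comparisons share no libraries between the media.

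EREG had the largest difference. In high glucose its lowest, median and highest values were 20.5, 32.9 and 43.2 CPM in CF cells, and the 5 WT libraries had 55.2, 46.0, 55.9, 59.2 and 53.3 CPM. In normal glucose they were 18.3, 24.2 and 28.8 CPM in CF cells and 40.9, 43.4 and 49.3 CPM in WT cells. No CF library reached the lowest WT library in either medium. CF cells held 0.590 times the WT level in high glucose (log2 -0.76 ± 0.14, adjusted p 1.93e-04) and 0.543 times in normal glucose (-0.88 ± 0.14, adjusted p 1.89e-05). The difference was larger in libraries 1 to 3 alone (-1.10 in high and -1.18 in normal glucose) than in libraries 4 to 6 alone (-0.54 and -0.60), and each was called.

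EPGN, the neighbour of EREG, went the other way. In high glucose its lowest, median and highest values were 22.1, 26.5 and 30.2 CPM in CF cells, against 17.3, 19.1, 16.2, 14.7 and 13.4 CPM in the WT libraries, with no overlap. In normal glucose they were 18.6, 26.1 and 38.5 CPM in CF cells and 14.9, 17.4 and 21.9 CPM in WT cells, and the ranges overlapped. The CF level was 1.62 times the WT level in high glucose (0.70 ± 0.15, adjusted p 8.74e-04) and 1.55 times in normal glucose (0.63 ± 0.14, adjusted p 0.00111), and both differences were called within each number set. They were 0.64 in libraries 1 to 3 and 0.82 in libraries 4 to 6 in high glucose, and 0.77 in libraries 1 to 3 and 0.45 in libraries 4 to 6 in normal glucose.

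AREG, on the other side of EREG, depended on the library set. In normal glucose its lowest, median and highest values were 63.4, 74.4 and 87.7 CPM in CF cells and 44.9, 58.0 and 64.9 CPM in WT cells, and the difference of 0.42 ± 0.09 was called (adjusted p 7.74e-04). In libraries 4 to 6 alone it was 0.73, but in libraries 1 to 3 alone it was 0.13 with an adjusted p of 0.187. In high glucose AREG had 61.4, 64.6 and 75.4 CPM as its lowest, median and highest values in CF cells, against 67.2, 65.3, 65.2, 54.1 and 52.0 CPM in the WT libraries. The difference of 0.13 ± 0.09 was not called, and it was -0.06 in libraries 1 to 3 and 0.37 (adjusted p 4.61e-04) in libraries 4 to 6. The mean of libraries 4 to 6 was above that of libraries 1 to 3 in both CF groups and below it in both WT groups.

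ADAM17 and ERBB3 were higher in CF cells in both media. ADAM17 had 182, 195 and 204 CPM as its lowest, median and highest values in CF cells in normal glucose, against 143, 144 and 157 CPM in WT cells, a 1.32-fold difference (0.40 ± 0.04, adjusted p 7.67e-08). In high glucose it had 190.0, 207 and 213 CPM in CF cells, against 175, 171, 185, 176 and 166 CPM in the WT libraries (0.23 ± 0.05, adjusted p 4.73e-04). The groups did not overlap in either medium, and in high glucose the call was lost with libraries 1 to 3 alone (0.17, adjusted p 0.0540) and kept with libraries 4 to 6 alone (0.27). In normal glucose the difference was 0.32 in libraries 1 to 3 and 0.48 in libraries 4 to 6, both called. ERBB3 had 239, 248 and 282 CPM in CF cells in normal glucose, against 174, 195 and 215 CPM in WT cells. In high glucose it had 263, 286 and 297 CPM in CF cells, against 189, 186, 194, 222 and 228 CPM in the WT libraries. It was higher 1.31-fold in normal glucose (0.39 ± 0.06, adjusted p 3.65e-05) and 1.38-fold in high glucose (0.47 ± 0.07, adjusted p 8.59e-06), with no overlap in either. In high glucose ERBB3 differed by 0.53 in libraries 1 to 3 and 0.34 in libraries 4 to 6, and in normal glucose by 0.41 in libraries 1 to 3 and 0.38 in libraries 4 to 6, each called.

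HBEGF was called lower in CF cells in high glucose, where its lowest, median and highest values were 11.6, 12.9 and 13.7 CPM in CF cells, against 19.8, 20.6, 19.1, 22.4 and 16.6 CPM in the WT libraries. Every CF library lay below every WT library (-0.62 ± 0.12, adjusted p 4.46e-04), with -0.59 in libraries 1 to 3 and -0.67 in libraries 4 to 6. In normal glucose HBEGF had 10.7, 14.6 and 19.8 CPM in CF cells and 14.2, 14.8 and 17.3 CPM in WT cells, a difference of -0.02 ± 0.12 with a 95% interval from -0.27 to 0.22. The difference was -0.32 in libraries 1 to 3 (adjusted p 0.0283) and 0.21 in libraries 4 to 6 (adjusted p 0.161). EGFR split in a similar manner. In normal glucose it had 737, 1088 and 1315 CPM in CF cells and 1012, 1178 and 1246 CPM in WT cells, with -0.41 in libraries 1 to 3 (adjusted p 2.41e-04) and 0.10 in libraries 4 to 6 (adjusted p 0.196).

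In high glucose EGFR had 673, 824 and 1000.1 CPM as its lowest, median and highest values in CF cells, against 946, 953, 1021, 1066 and 1101 CPM in the WT libraries. The difference of -0.29 ± 0.13 was not called at an adjusted p of 0.134, but it was called within each number set (-0.49 and -0.18). ERBB2 in high glucose had 232, 259 and 275 CPM in CF cells, against 225, 209.8, 217, 239 and 232 CPM in the WT libraries. The ranges overlapped, and the call (0.18 ± 0.05, adjusted p 0.0198) was lost without CF library 4 or 5 or WT library 2 or 3, with adjusted p between 0.0593 and 0.0756. It was also lost in libraries 1 to 3 alone (0.14, adjusted p 0.120) and with the high glucose groups alone in the fit (0.18, adjusted p 0.0620), and kept in libraries 4 to 6 alone (0.18, adjusted p 0.0257). In normal glucose ERBB2 was not called (-0.07 ± 0.05), with -0.10 in libraries 1 to 3 and -0.04 in libraries 4 to 6. TGFA and BTC were called at neither glucose level. For TGFA the 95% interval of the difference ran from -0.27 to 0.01 in high glucose and from -0.07 to 0.20 in normal glucose.

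For each gene studied, the median difference between CF and WT cells was taken over its 40 nearest tested genes, 20 on either side. These medians lay between -0.09 and 0.15 on the log2 scale in the 2 media. The highest, 0.15 with quartiles of -0.03 and 0.30, was that around ERBB2 in high glucose, where ERBB2 itself differed by 0.18. In normal glucose the median around ERBB2 was 0.06, and ERBB2 differed by -0.07. Whether the difference of ERBB2 in high glucose is shared with its region was not tested.

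Of the shedding genes, TIMP3 was higher in CF than in WT cells. It averaged 24.0 ± 1.76 CPM in CF cells (SD, n = 6) and 10.7 ± 1.25 CPM in WT cells (n = 5) in high glucose (1.16 ± 0.09). In normal glucose it averaged 36.8 ± 2.88 CPM in CF cells and 16.0 ± 2.23 CPM in WT cells (1.21 ± 0.09). ADAM12 was 2.38-fold and 2.64-fold higher in CF cells in high and normal glucose, and ADAM9, a metalloprotease that can cut HBEGF, was at 0.598 and 0.632 times the WT level. ADAM10 (0.21 in high and 0.26 in normal glucose, log2) and RHBDF2 (0.31 and 0.39) were higher by smaller steps. RHBDF1 was not called in either medium. In normal glucose RHBDF2 had between 98.5 and 151 CPM in CF cells and between 86.2 and 102 CPM in WT cells, so its ranges overlapped. In high glucose 6 of 17 tested members of this list were higher in CF cells and 2 lower, and in normal glucose 4 were higher and 3 lower, among all genes 9.35% higher and 10.6% lower in high glucose and 11.4% higher and 13% lower in normal glucose.

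LRIG1 was the receptor inhibitor with the largest difference, at 6.97 ± 1.23 CPM in CF cells and 1.76 ± 0.374 CPM in WT cells in high glucose (3.94-fold) and at 6.50 ± 0.860 CPM in CF cells and 1.84 ± 0.454 CPM in WT cells in normal glucose (3.53-fold). ERRFI1 was 1.31-fold higher in CF cells in normal glucose and was not called in high glucose. The adaptor GAB2 was at 0.336 times the WT level in high glucose and 0.400 times in normal glucose, on a mean of at most 3.78 CPM in these groups. NRG1 was lower in CF cells in both media, with 0.314 ± 0.170 CPM in CF cells and 1.44 ± 0.452 CPM in WT cells in high glucose.

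Of the 25 transcripts known to be induced by EGFR signalling, 4 were higher and 12 lower in CF cells in high glucose, where 9.35% of all genes were higher and 10.6% lower. Their median was -0.27, against 0.01 over all genes. In normal glucose 8 were higher and 6 lower, where 11.4% of all genes were higher and 13% lower, and their median was 0.05, against 0.0040 over all genes. CCND1, which encodes the cell cycle regulator cyclin D1, was at 0.373 times the WT level in high glucose and 0.450 times in normal glucose. DUSP4, a MAP kinase phosphatase, was at 0.474 times in high glucose, EGR3 at 0.399 times in normal glucose, and EGR2 was 2.47-fold and 2.52-fold higher, at a mean of at most 1.23 CPM in these groups. Neighbouring genes were not compared for these transcripts, nor for the shedding, inhibitor and adaptor genes above. Whether their differences are shared with their regions was not tested.

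**Figure D5:**
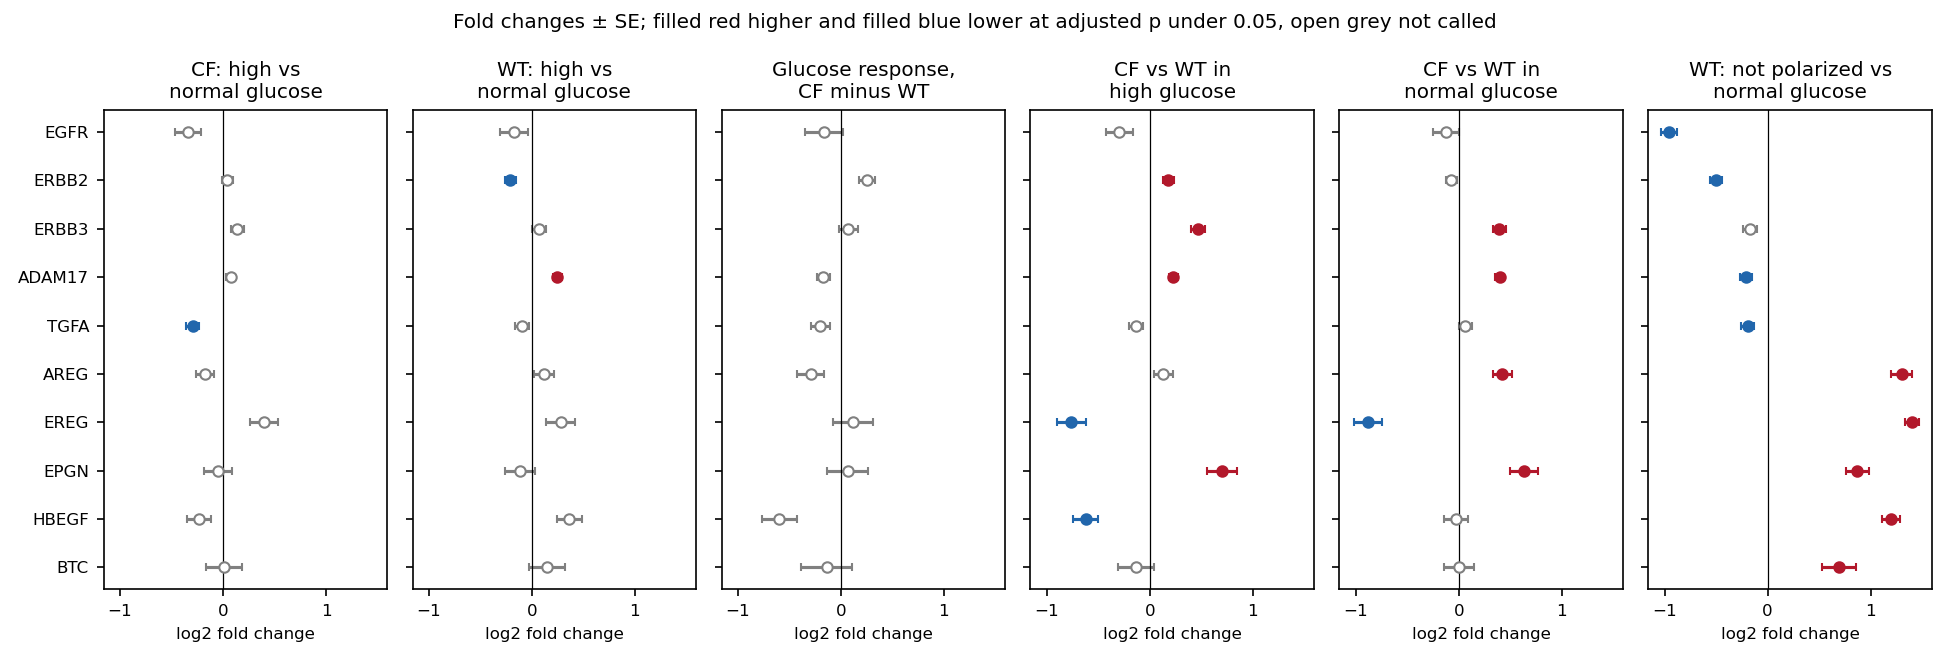
Log2 fold change ± SE of the 10 genes in the 6 comparisons, on a shared axis, with filled red points called higher and filled blue points lower at an adjusted p under 0.05 and open grey points not called. The not polarized comparison (right) had the widest spread, from -0.96 for EGFR to 1.40 for EREG.

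High and normal glucose were compared within each line. In CF cells TGFA alone was called of the 10 genes, where 8.41% of all genes were called (4.27% higher and 4.14% lower), and in WT cells ADAM17 was higher and ERBB2 lower, where 2.96% were called (1.49% higher and 1.47% lower). The median of the 10 genes was -0.02 in CF cells and 0.09 in WT cells on the log2 scale, against less than 0.01 from 0 over all genes. These values come from the fit without a term for the number set. With that term 4 of the 10 genes were called in CF cells, beside 2812 of all 16338 genes. In WT cells 3 were, beside 1418.

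TGFA had 261, 292 and 343 CPM as its lowest, median and highest values in CF cells in high glucose, against 353, 364 and 373 CPM in normal glucose. The groups did not overlap, and high glucose gave 0.815 times the normal glucose level (-0.30 ± 0.07, adjusted p 0.00473). Libraries 1 to 3 alone gave -0.21 and libraries 4 to 6 alone -0.40, both called. In WT cells TGFA had 331, 356, 353, 283 and 297 CPM in high glucose, against 316, 345 and 381 CPM in normal glucose. These ranges overlapped, and the difference of -0.10 ± 0.07 was not called (95% interval -0.24 to 0.04).

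ADAM17 had 175, 171, 185, 176 and 166 CPM in WT cells in high glucose, against 143, 144 and 157 CPM as the lowest, median and highest values in normal glucose. Every library in high glucose lay above every library in normal glucose, a 1.19-fold difference (0.25 ± 0.05, adjusted p 0.00255) that was called in both number sets (0.23 in libraries 1 to 3 and 0.27 in libraries 4 to 6). In CF cells ADAM17 had 190.0, 207 and 213 CPM in high glucose and 182, 195 and 204 CPM in normal glucose, a difference of 0.08 ± 0.04 that was not called. ERBB2 had 225, 209.8, 217, 239 and 232 CPM in WT cells in high glucose, against 252, 261 and 269 CPM in normal glucose. The groups did not overlap, but the call (-0.21 ± 0.05, adjusted p 0.0322) was lost, at adjusted p between 0.0507 and 0.125, when any WT library other than high glucose library 4 was left out. It was also lost in libraries 4 to 6 alone (-0.16, adjusted p 0.131) and kept in libraries 1 to 3 alone (-0.22, adjusted p 0.0432).

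HBEGF and EGFR were not called, but their values moved with the library set. In CF cells HBEGF had 11.6, 12.9 and 13.7 CPM in high glucose and 10.7, 14.6 and 19.8 CPM in normal glucose. The 3 CF normal glucose libraries numbered 1 to 3 averaged 11.7 ± 0.827 CPM and those numbered 4 to 6 averaged 18.5 ± 1.47 CPM, so the difference with glucose was 0.17 within libraries 1 to 3 and -0.58 within libraries 4 to 6 (adjusted p 5.34e-04). In WT cells HBEGF had 19.8, 20.6, 19.1, 22.4 and 16.6 CPM in high glucose, against 14.2, 14.8 and 17.3 CPM in normal glucose (0.36 ± 0.12, adjusted p 0.113), and it was called once the number set was a term (0.38, adjusted p 0.0140). It was 0.44 in libraries 1 to 3 (adjusted p 0.0173) and 0.31 in libraries 4 to 6 (adjusted p 0.162).

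EGFR in CF cells averaged 694 ± 29.1 CPM in high glucose and 821 ± 100.5 CPM in normal glucose in libraries 1 to 3, and 968 ± 41.8 CPM in high glucose and 1286 ± 37.6 CPM in normal glucose in libraries 4 to 6 (SD, n = 3 each). The difference over all libraries, -0.34 ± 0.13, was not called (adjusted p 0.106), but with the number set as a term it was -0.33 with an adjusted p of 0.00149. It was -0.25 in libraries 1 to 3 and -0.41 in libraries 4 to 6, both called. EREG in CF cells had 20.5, 32.9 and 43.2 CPM in high glucose and 18.3, 24.2 and 28.8 CPM in normal glucose (0.40 ± 0.14, adjusted p 0.0771), and was called with the set term (0.39, adjusted p 0.0325). It was 0.24 in libraries 1 to 3 (adjusted p 0.222) and 0.50 in libraries 4 to 6 (adjusted p 1.75e-05). In WT cells EREG was not called (0.28 ± 0.14, adjusted p 0.344), with 0.16 in libraries 1 to 3 and 0.44 (adjusted p 6.68e-04) in libraries 4 to 6. AREG in CF cells was not called over all libraries (-0.17 ± 0.09). It was -0.12 in libraries 1 to 3 (adjusted p 0.302) and -0.22 in libraries 4 to 6 (adjusted p 0.0304). ERBB3 in CF cells was not called either (0.14 ± 0.06), but was called with the set term (0.14, adjusted p 0.0247). It was 0.17 in libraries 1 to 3 and 0.10 in libraries 4 to 6, neither called. BTC and EPGN were called with glucose in neither line, over all libraries or within a number set.

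The difference between the glucose responses of the lines, CF minus WT, was called for 0 of the 10 genes by edgeR and for 0 by DESeq2, where 0.0367% of all genes were called by edgeR (0.0122% higher and 0.0245% lower). At an unadjusted p under 0.05 there were 5 of 10, among 6.79% of all genes. HBEGF had the largest, at -0.60 ± 0.17 with an adjusted p of 0.281, followed by AREG at -0.29 ± 0.13. ERBB2 was at 0.25 ± 0.08, TGFA at -0.20 ± 0.09 and ADAM17 at -0.17 ± 0.06. With the number set as a term HBEGF (-0.60, adjusted p 0.0324) and ERBB2 (0.24, adjusted p 0.0333) were called, and HBEGF was -0.27 (adjusted p 0.655) in libraries 1 to 3 and -0.88 (adjusted p 0.00124) in libraries 4 to 6.

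TIMP3 was lower in high glucose in both lines, at 24.0 ± 1.76 CPM in high and 36.8 ± 2.88 CPM in normal glucose in CF cells (-0.62 ± 0.08) and at 10.7 ± 1.25 CPM in high and 16.0 ± 2.23 CPM in normal glucose in WT cells (-0.57 ± 0.09). In CF cells ADAM12 was lower as well (0.711 times), and the membrane protease RHBDL2 was 1.24-fold higher. Of the EGFR-induced transcripts 0 of 25 were higher and 7 lower in CF cells in high glucose, where 4.27% of all genes were higher and 4.14% lower. SPRY1, an inhibitor of the RAS cascade, was at 0.518 times, IER3 at 0.681 times and FOSL1 at 0.710 times the normal glucose level. FOSL1 had between 8.59 and 11.1 CPM in CF cells in high glucose and between 8.46 and 18.5 CPM in normal glucose, so its ranges overlapped. In WT cells IER3 was lower (0.701 times) and DUSP4 (1.43-fold) and ETV4 (1.35-fold) were higher. ERRFI1 was at 0.799 times the normal glucose level in CF cells and was not called in WT cells, and none of the 23 tested adaptors and kinases was called in CF cells.

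Over the 5 groups EREG spanned the widest range of group means, 2.29 on the log2 scale, and ran from not polarized WT cells (119 CPM) through WT cells in high (53.9 CPM) and normal glucose (44.6 CPM) to CF cells in high (31.9 CPM) and normal glucose (24.2 CPM). Of these neighbours in the order, only not polarized cells were clear of the next group. HBEGF spanned 1.44 and AREG 1.32, and in each only not polarized cells were clear of the next group. TGFA spanned the least, 0.30, and all its neighbouring groups overlapped. ADAM17 ran from CF cells in high (205 CPM) and normal glucose (194 CPM) through WT cells in high (175 CPM) and normal glucose (148 CPM) to not polarized cells (129 CPM). The last 2 steps in this order were clear of overlap, while the CF groups overlapped each other and CF cells in normal glucose overlapped WT cells in high glucose. ERBB3 had the profile nearest to that of ADAM17, with a root mean square difference of 0.09 on the log2 scale after centring over the 5 groups.

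For the 3 genes with the widest range, the most similar profiles among 13504 protein-coding genes were sought by the same measure, as a description over 5 group means. EREG was nearest to BEX4, ADM2 and SRGAP1 (0.08 to 0.09), HBEGF to SPRY4, MPC1 and MBP (0.05 to 0.08), and AREG to GPAT3, CHN1 and WDR17 (0.09 to 0.10). Group means of BEX4 were low, between 0.351 and 4.25 CPM. Those of CHN1 lay between 0.937 and 2.60 CPM and those of WDR17 between 1.09 and 2.84 CPM. At such levels the 0.5 CPM added before the log narrows a profile. SPRY4 averaged 7.71 ± 0.944 CPM in CF cells in high glucose, 8.58 ± 2.72 CPM in CF cells in normal glucose, 12.2 ± 1.83 CPM in WT cells in high glucose, 20.1 ± 1.17 CPM in not polarized cells and 8.99 ± 0.824 CPM in WT cells in normal glucose.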

How the data were processed

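RNA of 26 bulk libraries was sequenced, and the reads were aligned with HISAT2 to hg38, per the submitters' processing notes. Neither the counting tool nor its strand setting is given in the sources used here. The deposited tables hold, for 58735 genes of each library, a read count and an FPKM value. The authors' FPKM are counts scaled by gene length, by the library total and by a library constant between 0.945 and 1.07, so they carry the same information as the counts. All identifiers and positions match GENCODE 29.

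Library totals were between 14658319 and 20413839 counts. Counts were tested with the quasi-likelihood test of edgeR 4.0.16 in R 4.3.3, with TMM factors, the filterByExpr filter (minimum count 10, minimum total 15) and Benjamini-Hochberg adjustment over all genes tested, and a gene was called at an adjusted p under 0.05. A fit of 23 libraries with 19 residual degrees of freedom gave the glucose and genotype comparisons over 16338 genes, and a fit of 9 libraries with 7 gave the not polarized comparison over 16105 genes. CPM were computed from the counts with TMM factors over all 26 libraries. The scripts were tested on simulated data.

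The 10 genes and the pathway lists were chosen with earlier results of these data known. Of each list the text names, for a comparison, up to 3 called genes with the largest change at 1 CPM or more in a group, and always EGF, ERBB4, NRG1, ADAM10, RHBDF1, RHBDF2, ERRFI1, LRIG1 and TIMP3. Profiles were compared by the root mean square difference of centred group means of log2(CPM + 0.5). Promoters are RefSeq sequences of GRCh38.p14. Alternatives were DESeq2 1.42.0, RLE factors, other filters, limma 3.58.1 on log2(FPKM + 1) or log2(FPKM + 0.1), a block by library number, a term for the number set, each set alone, other libraries in the fit and leaving out each library. Same-numbered libraries did not deviate together in every pair, so the numbers were not taken as pairs.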

Additional observations from a re-analysis of the deposited data

Results flagged for a closer look

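In each group of 4 or more libraries, the highest and lowest values of the 10 genes were compared with the rest by the gap to the nearest library, in 40 combinations of gene and group. 0 were flagged. Chance flags about 1 in 20 such groups.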

How the results depend on the processing

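The direction of each called gene held under every alternative run. With glucose, the calls of TGFA in CF cells and of ADAM17 in WT cells were kept in all runs. Between CF and WT cells, those of EREG, EPGN and ERBB3 were kept in both media, that of HBEGF in high glucose and that of ADAM17 in normal glucose. In not polarized cells, those of EGFR, ERBB2, EREG, AREG, HBEGF, EPGN, BTC and ADAM17 were kept in all runs. The count of the 10 genes called changed with the setting. For CF glucose it was 1, and became 2 with DESeq2, 4 with the set term, 2 in libraries 1 to 3 and 5 in libraries 4 to 6. For WT glucose it was 2, and became 1 with no low-count filter, 1 with limma on unfiltered FPKM, 3 with the set term and 3 in libraries 1 to 3. For the difference in glucose response it was 0, and became 2 with the set term and 1 in libraries 4 to 6. For CF against WT in high glucose it was 6, and became 7 with the set term, 5 in libraries 1 to 3, 8 in libraries 4 to 6, 5 with those groups alone and 5 with no low-count filter. In normal glucose it was 5, and became 6 in libraries 1 to 3. For not polarized cells it was 9, and became 10 against WT libraries 4 to 6, 10 with a stricter low-count filter, and 8 with all 26 libraries, with no low-count filter or with limma on unfiltered FPKM. Leaving out each library gave between 1 and 2 for CF glucose, between 1 and 2 for WT glucose, 0 and 0 for the difference in response, between 5 and 7 for CF against WT in high glucose, 5 and 5 in normal glucose, and between 8 and 10 for not polarized cells.

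Single libraries decided some calls. EREG with glucose in CF cells was called without CF high glucose library 1 (0.46, adjusted p 0.0389) or 3 (0.49, adjusted p 0.0149), and EGFR without CF normal glucose library 1 (-0.42, adjusted p 0.0478) or 3 (-0.43, adjusted p 0.0222). TGFA between CF and WT cells in high glucose was called without CF high glucose library 3 (-0.19, adjusted p 0.0409), and ERBB3 in not polarized cells without WT normal glucose library 2 (adjusted p 0.0127) or 3 (adjusted p 0.0473). TGFA in not polarized cells was also lost with all 26 libraries in the fit (adjusted p 0.0563) and with no low-count filter (adjusted p 0.0606). ERBB2 was lost with no low-count filter in WT glucose (adjusted p 0.134) and in CF against WT in high glucose (adjusted p 0.0652). The cause was not tested.

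Values that were not called changed sign. In libraries 1 to 3 alone these were AREG for CF against WT in high glucose (-0.058), HBEGF (0.17) and BTC (-0.14) for CF glucose, BTC for CF against WT in normal glucose (-0.0093) and EPGN for the difference in response (-0.13). In libraries 4 to 6 alone they were EGFR (0.10), HBEGF (0.21) and BTC (-0.00099) for CF against WT in normal glucose, BTC in high glucose (0.11), EPGN for CF glucose (0.18), and ERBB3 (-0.040) and BTC (0.11) for the difference in response. BTC for CF against WT in normal glucose was -0.0055 with the set term and -0.0023 with those groups alone. With 1 library left out, BTC ran from -0.073 to 0.106 and EPGN from -0.148 to 0.0700 for CF glucose, EPGN from -0.033 to 0.185 for the difference in response, and HBEGF from -0.106 to 0.064 and BTC from -0.098 to 0.126 for CF against WT in normal glucose.

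With the library number as a replicate block, 3 of the 10 genes were called for CF glucose, 3 for WT glucose, 0 for the difference in response, 7 for CF against WT in high glucose, 5 in normal glucose and 9 for not polarized cells. EGFR (-0.33, adjusted p 0.00584) and ERBB3 (0.14, adjusted p 0.0404) for CF glucose, HBEGF for WT glucose (0.38, adjusted p 0.0369) and EGFR for CF against WT in high glucose (-0.35, adjusted p 0.00293) were then called, and BTC in normal glucose was -0.011. The lowest correlation of same-numbered libraries was between -0.0447 and 0.0912 in the 5 pairs of groups, and not every library correlated best with its own number.

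Over all genes, calls for WT glucose (484) were 780 with DESeq2, 319 with no low-count filter, 312 with limma on unfiltered FPKM, 1092 with the block, 1418 with the set term and 823 in libraries 4 to 6, and fell as low as 281 with 1 library left out. Calls for CF glucose (1374) were 891 with no low-count filter, 2561 with the block, 2812 with the set term and 2330 in libraries 4 to 6. Calls for the difference in response (6) were 62 with DESeq2, 3 with limma on unfiltered FPKM, 73 with the block, 146 with the set term, 1 in libraries 1 to 3 and 387 in libraries 4 to 6, and between 0 and 19 with 1 library left out. Calls for CF against WT in high glucose (3253) were 4973 with the set term.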
